A study of Mus musculus with 9 samples.

Results

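The genes described here encode the heavy chains of major histocompatibility complex (MHC) class I molecules, the light chain B2m that pairs with them, and Nlrc5, which switches them on. The list held 6 genes: H2-D1, H2-K1, H2-T23, H2-M3, B2m and Nlrc5. Probe sets were taken where the platform annotation gave 1 gene symbol and that symbol was on the list. This gave 17 of the 45101 probe sets on the array, covering 5 genes: 9 for H2-D1, 4 for H2-K1, 2 for B2m, and 1 each for H2-M3 and Nlrc5. H2-T23 had 0 such probe sets, because both probe sets that carry its symbol also carry that of a pseudogene. It was left out of the comparisons, and 1449556_at, which carries both symbols, is described near the end. Of the 17 probe sets, 16 passed a filter on dim signals. The exception was 1451934_at for H2-D1, which read 20.4, 7.73 and 23.8 intensity units in mock, 134, 47.2 and 34.5 in HS, and 27.6, 43.2 and 29.9 in MC+HS, and was not tested.

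Gene expression was measured on microarrays in brain tissue of adult male BALB/c mice, a strain with an intact immune system. All tissue came from around the site of an injection into the striatum and was taken 2 days later. HS mice received BV-HSVtk, a baculovirus vector, purified by high-speed centrifugation (HS), at 100000000 particles in 10 µL on each side. MC+HS mice received the same dose of BV-HSVtk that had been purified with membrane chromatography (MC) as well as HS. Mock mice received virus-free culture medium of Sf9 insect cells, put through the MC+HS steps. Each group held 3 mice, labelled as biological replicates, with 1 array per mouse. Against mock, HS vector therefore differed both in virus and in purification, and these cannot be told apart. The samples are bulk tissue, in which a change in the number of cells of a type and a change in RNA per cell cannot be told apart.

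Class I molecules are assembled in the endoplasmic reticulum from a heavy chain, B2m and a short peptide cut from proteins of the cell, and are shown at the cell surface to CD8 T cells and natural killer (NK) cells. Neurons and glia of the uninjured brain carry little class I, and interferons raise it. H2-D1 and H2-K1 are classical, highly variable heavy chains. H2-M3 is a non-classical heavy chain that presents peptides beginning with N-formylmethionine, and Nlrc5 is the interferon-inducible transactivator that works at the SXY module of class I promoters. BALB/c mice carry the H-2d haplotype, which has a further classical gene, H2-L. Of the 17 probe sets, 11 have names ending in x_at, by which the manufacturer marks probes that can bind related transcripts. Values printed for H2-D1 and H2-K1 may therefore hold signal from each other and from relatives, and their probe sets are not independent measurements.

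The promoters of 4 of these genes are shown because Nlrc5 and interferon-induced factors are known to act at class I promoters. They are RefSeq sequences of build GRCm38.p6, from strain C57BL/6J (H-2b haplotype) and not BALB/c, reaching from 250 bases before the transcription start to 50 after it. They lie at chr17:35262844-35263143 (plus strand) for H2-D1, chr17:34000298-34000597 (minus strand, the first of 2 listed starts) for H2-K1, chr17:37269984-37270283 (plus strand) for H2-M3 and chr2:122147437-122147736 (plus strand) for B2m. Capitals mark matches to any of 5 motifs, searched on both strands.
H2-D1: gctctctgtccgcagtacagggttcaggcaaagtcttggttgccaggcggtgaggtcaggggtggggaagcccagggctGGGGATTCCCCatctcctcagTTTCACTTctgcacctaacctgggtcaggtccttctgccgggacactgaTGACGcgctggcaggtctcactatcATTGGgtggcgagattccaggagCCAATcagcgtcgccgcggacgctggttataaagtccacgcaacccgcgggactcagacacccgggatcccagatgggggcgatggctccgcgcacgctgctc
H2-K1: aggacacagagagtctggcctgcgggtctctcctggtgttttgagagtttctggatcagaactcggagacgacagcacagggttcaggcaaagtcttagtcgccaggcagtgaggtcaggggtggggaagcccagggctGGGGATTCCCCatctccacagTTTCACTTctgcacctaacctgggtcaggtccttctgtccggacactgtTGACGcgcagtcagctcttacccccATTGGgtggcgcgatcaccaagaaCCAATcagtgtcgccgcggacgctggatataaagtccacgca
H2-M3: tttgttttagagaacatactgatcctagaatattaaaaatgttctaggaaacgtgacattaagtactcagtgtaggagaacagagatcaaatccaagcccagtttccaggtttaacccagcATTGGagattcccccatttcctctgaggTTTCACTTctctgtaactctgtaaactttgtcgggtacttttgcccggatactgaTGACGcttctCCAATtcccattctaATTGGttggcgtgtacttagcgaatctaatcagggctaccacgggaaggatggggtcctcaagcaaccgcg
B2m: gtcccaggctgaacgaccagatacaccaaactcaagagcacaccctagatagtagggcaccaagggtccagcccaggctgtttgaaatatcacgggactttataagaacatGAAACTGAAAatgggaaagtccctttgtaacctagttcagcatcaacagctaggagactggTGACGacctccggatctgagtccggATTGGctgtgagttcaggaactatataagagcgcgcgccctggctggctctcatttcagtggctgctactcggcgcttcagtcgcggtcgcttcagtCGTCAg

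Enhancer A, a palindromic site of NF-kB, is the longest run of capitals in the H2-D1 promoter (bases -171 to -161 from the start) and in the H2-K1 promoter (-111 to -101). It was found in 6 of 27025 promoters of all genes. The TGACG core of the X2 box, part of the SXY module, was found in all 4 promoters shown and in 21.0% of all promoters. The ATTGG of the Y box was also found in all 4 and in 37.9% of all promoters. A full interferon-stimulated response element was searched as TTTC, any 2 bases and TTTC again. It was found in the B2m promoter alone among these 4 and in 3.49% of all promoters. Its shorter core TTTCNNTT, which lies within it, was found in all 4 and in 24.2% of all promoters. In H2-D1, H2-K1 and H2-M3 that core read TTTCACTT. The H2-T23 promoter was also searched and is not shown. It held the Y box and the shorter core, but no X2 core and no enhancer A. Unlike the other heavy chain promoters it held a match to the full letters searched for the interferon-stimulated response element, at bases -124 to -115. The H2-D1 and H2-K1 windows matched at 214 of 239 aligned bases (89.5%), against 68.5% for H2-D1 and H2-M3 and 61.8% for H2-D1 and B2m. A match in these letters is a description of the reference and does not show binding. Lack of a match does not show that a promoter lacks the element.

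The arrays had median signals of 147 to 263 intensity units, with HS replicate 3 the brightest. Signals below are given as deposited, and differences were taken on log2(signal + 16) after each array had been moved to a common median. HS replicate 1 stood apart: its median correlation with the other arrays over 28257 probe sets was 0.757, against 0.956 to 0.979 for the others. Results are given with and without it. All 6 neuronal markers passed the filter, and their summed signal after that scaling was 42759 to 44418.5 in mock, 31969 to 44615.5 in HS and 40079 to 46421 in MC+HS, the lowest value being HS replicate 1. Markers of striatal medium spiny neurons summed to 5167 on HS replicate 1 and to 16127 to 22635 on the other arrays, and astrocyte markers to 8804 and to 34267 to 40708.

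H2-D1, a classical heavy chain, was higher after both vectors. Its brightest probe set, 1452544_x_at, read 992, 2609 and 907 on the mock arrays. It read 6204, 7750.0 and 13349.5 on the HS arrays and 7073, 8104 and 7045 on the MC+HS arrays. All vector arrays lay above all mock arrays, and mock replicate 2 was the highest mock array. The difference from mock was 5.21-fold for HS (log2 difference 2.38 ± 0.35, SE; n = 3 per group; limma adjusted p = 0.0178) and 5.40-fold for MC+HS (2.43 ± 0.35; limma adjusted p = 0.0226).

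Of the 8 H2-D1 probe sets tested, 7 rose in HS and 8 rose in MC+HS, with log2 differences of 2.01 to 2.99 and 1.93 to 3.04. Among all probe sets tested, 0.747% rose in HS and 0.556% in MC+HS, at a limma adjusted p under 0.05. The highest difference came from 1426324_at, whose name carries no mark for related transcripts. It read 131, 257 and 133 in mock, 934, 1731 and 3393 in HS, and 1290.2, 1878 and 1415 in MC+HS. The rise was 2.99 ± 0.32 in HS (limma adjusted p = 0.00454) and 3.04 ± 0.32 in MC+HS (limma adjusted p = 0.00649). The H2-D1 probe set that did not pass in HS was 1427651_x_at, which read 769.7, 2195 and 587 in mock, 3399, 7224 and 12449 in HS, and 6399, 7411 and 6558 in MC+HS. Its groups did not overlap. It differed by 2.43 ± 0.46 in HS (limma adjusted p = 0.059), and it rose in MC+HS by 2.72 ± 0.46 (limma adjusted p = 0.0446). On HS replicate 1 all 8 were above all mock arrays.

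The other H2-D1 probe sets also rose. Probe sets 1425545_x_at, 1451784_x_at, 1425614_x_at and 1451683_x_at read 297 to 2069 in mock, 2538 to 11826 in HS and 2354 to 6842 in MC+HS. Their log2 differences were 2.33, 2.61, 2.63 and 2.69 in HS and 2.31, 2.55, 2.67 and 2.93 in MC+HS, and all 4 rose in both. The dimmest one tested, 1450170_x_at, read 40.7, 83.5 and 38.4 in mock, 334, 245 and 390 in HS, and 186, 322 and 246 in MC+HS. Its groups did not overlap, and it rose by 2.01 ± 0.24 in HS (limma adjusted p = 0.00771) and by 1.93 ± 0.24 in MC+HS (limma adjusted p = 0.0118). Its lowest rank was percentile 23.1 of an array, and it passed the filter through the vector arrays, where it was brighter. Its rise is therefore not independent of the filter. The 8 H2-D1 probe sets without HS replicate 1 rose by 1.83 to 3.31 in HS and by 1.93 to 3.04 in MC+HS.

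H2-K1, the other classical heavy chain, gave a mixed picture because its 4 probe sets disagreed on HS replicate 1. Probe set 1451931_x_at read 574, 1563 and 506 in mock. It read 4941, 5551 and 9167 in HS and 4731, 6021 and 5014 in MC+HS, so that every vector array was above every mock array. It rose by 2.71 ± 0.36 in HS (limma adjusted p = 0.0114) and by 2.71 ± 0.36 in MC+HS (limma adjusted p = 0.0164), or 6.53-fold in HS.
The brightest H2-K1 probe set, 1425336_x_at, read 2271, 5846 and 2396 in mock, 2388, 11934 and 18307 in HS, and 10354, 11304 and 10566.5 in MC+HS. HS replicate 1 was at the level of the lower mock arrays, and the other HS arrays were above all mock arrays. The difference was 1.04 ± 0.58 in HS (limma adjusted p = 0.635) and 1.73 ± 0.58 in MC+HS (limma adjusted p = 0.585).
The remaining H2-K1 probe sets were dimmer. Probe set 1427746_x_at read 317, 1090.1 and 311 in mock, 964, 5642 and 9293 in HS, and 3464, 5023 and 3710.2 in MC+HS, with HS replicate 1 inside the mock range. It differed by 2.61 ± 0.68 in HS and 3.00 ± 0.68 in MC+HS (limma adjusted p = 0.236 and 0.15). Probe set 1450534_x_at read 169, 263 and 128 in mock, 379, 752 and 1264 in HS, and 653, 1028 and 821 in MC+HS, and its vector arrays were all above its mock arrays. It differed by 1.60 ± 0.30 in HS (limma adjusted p = 0.0527) and rose by 2.07 ± 0.30 in MC+HS (limma adjusted p = 0.0215). All 4 H2-K1 probe sets rose in both comparisons without HS replicate 1. In the order given here the log2 differences were then 2.75, 1.78, 3.44 and 1.91 in HS and 2.71, 1.73, 3.00 and 2.07 in MC+HS.

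H2-M3, the non-classical heavy chain, was read by 1421358_at alone. Its signals were 309, 512 and 296 in mock, 171, 1287 and 2146 in HS, and 949, 1299 and 992 in MC+HS. All 3 MC+HS arrays and 2 HS arrays were above all mock arrays, and HS replicate 1 was below all of them. The difference was 0.80 ± 0.64 in HS (limma adjusted p = 0.635) and 1.501 ± 0.64 in MC+HS (limma adjusted p = 0.983). H2-M3 on the 8 arrays other than HS replicate 1 rose by 1.72 ± 0.17 in HS (limma adjusted p = 0.00018) and by 1.501 ± 0.149 in MC+HS (limma adjusted p = 0.000258). Over all 18 alternative analyses its limma adjusted p ran from 1.09e-06 to 0.9996 in HS and from 9.32e-05 to 0.999998 in MC+HS.

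B2m, the light chain shared by all these heavy chains, already had high signals in mock. Probe set 1452428_a_at read 2701, 5822 and 2279.9 in mock, 1309, 9645 and 15079.6 in HS, and 8845, 9125 and 8548 in MC+HS. Probe set 1449289_a_at read 3770.0, 7116 and 3502 in mock, 105, 12158 and 18346 in HS, and 10794, 11739.8 and 11157 in MC+HS. Both B2m probe sets were below all mock arrays on HS replicate 1 and above all mock arrays on the other 5 vector arrays.

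With all arrays, B2m differed by 0.50 ± 0.69 and -0.90 ± 1.47 in HS (limma adjusted p = 0.727 and 0.767) and by 1.39 ± 0.69 and 1.27 ± 1.47 in MC+HS, where limma adjusted p was 0.9999 for both. Without HS replicate 1 the 2 probe sets agreed. They rose by 1.43 ± 0.25 and 1.27 ± 0.19 in HS (limma adjusted p = 0.00888 and 0.00272) and by 1.39 ± 0.23 and 1.27 ± 0.17 in MC+HS (limma adjusted p = 0.00536 and 0.00147). These were the lowest log2 differences among the 16 probe sets in that analysis, where the median was 2.57 in HS and 2.37 in MC+HS. B2m signals were among the brightest, with 1449289_a_at reaching 78.0% of the highest signal on an array, and the part of signal range in this difference was not tested.

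Nlrc5, the transactivator of class I genes, was read by 1437176_at, and its promoter is not shown. It read 125, 307 and 116 in mock, 163, 1181 and 2129 in HS, and 736, 846 and 726 in MC+HS. Again 5 vector arrays were above all mock arrays, and HS replicate 1 lay within the mock range. The difference was 1.78 ± 0.67 in HS (limma adjusted p = 0.607) and 2.08 ± 0.67 in MC+HS (limma adjusted p = 0.517). Without HS replicate 1, Nlrc5 rose 6.49-fold in HS (2.70 ± 0.26; limma adjusted p = 0.0002) and 4.23-fold in MC+HS (2.08 ± 0.24; limma adjusted p = 0.000612).

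**Figure D1:**
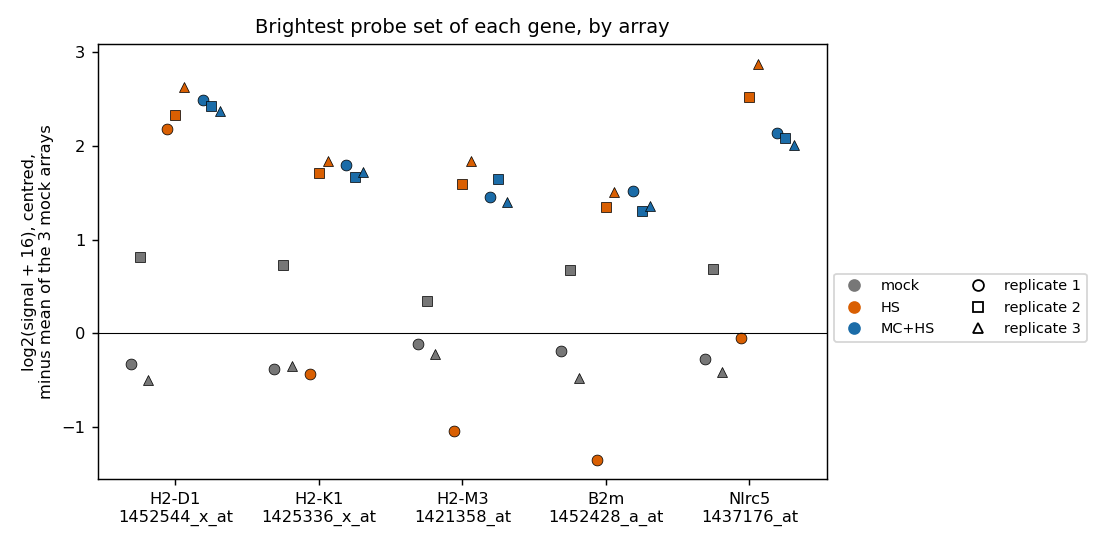
Centred log2 signal of the brightest probe set of each gene on each of the 9 arrays, relative to the mean of the 3 mock arrays (vertical axis, log2; horizontal axis, genes). Colours are groups and shapes are replicate numbers; mock replicate 2 lies above the other mock arrays for each gene, and HS replicate 1 falls to -0.43 for H2-K1, -1.04 for H2-M3 and -1.35 for B2m while H2-D1 stays at 2.18.

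Taking the probe sets together, 8 of 16 rose in HS and 10 of 16 rose in MC+HS, and 0 fell in either (0.0283% and 0.0248% of all probe sets fell). The median log2 difference of the 16 was 2.36 in HS and 2.37 in MC+HS, against -0.21 and -0.02 over all probe sets tested. Of those that rose, 7 in HS and 8 in MC+HS were H2-D1 probe sets and the others were for H2-K1. With the brightest probe set standing for each gene, 1 of 5 genes rose in each comparison, H2-D1, where 0.893% and 0.69% of 13331 genes rose. With HS replicate 1 left out, 5 of 5 rose in both, where the shares were 3.82% and 3.25% of 13223 genes. The groups did not overlap for 10 of 16 in HS, where 4.65% of all probe sets were higher without overlap, and for 16 of 16 in MC+HS, where the share was 8.79%. Without HS replicate 1, all 16 rose in both comparisons, where 2.97% of all probe sets rose in HS and 2.51% in MC+HS. The limma adjusted p of the 16 then lay between 1.74e-05 and 0.00888 in HS and between 1.97e-05 and 0.00536 in MC+HS.

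**Figure D2:**
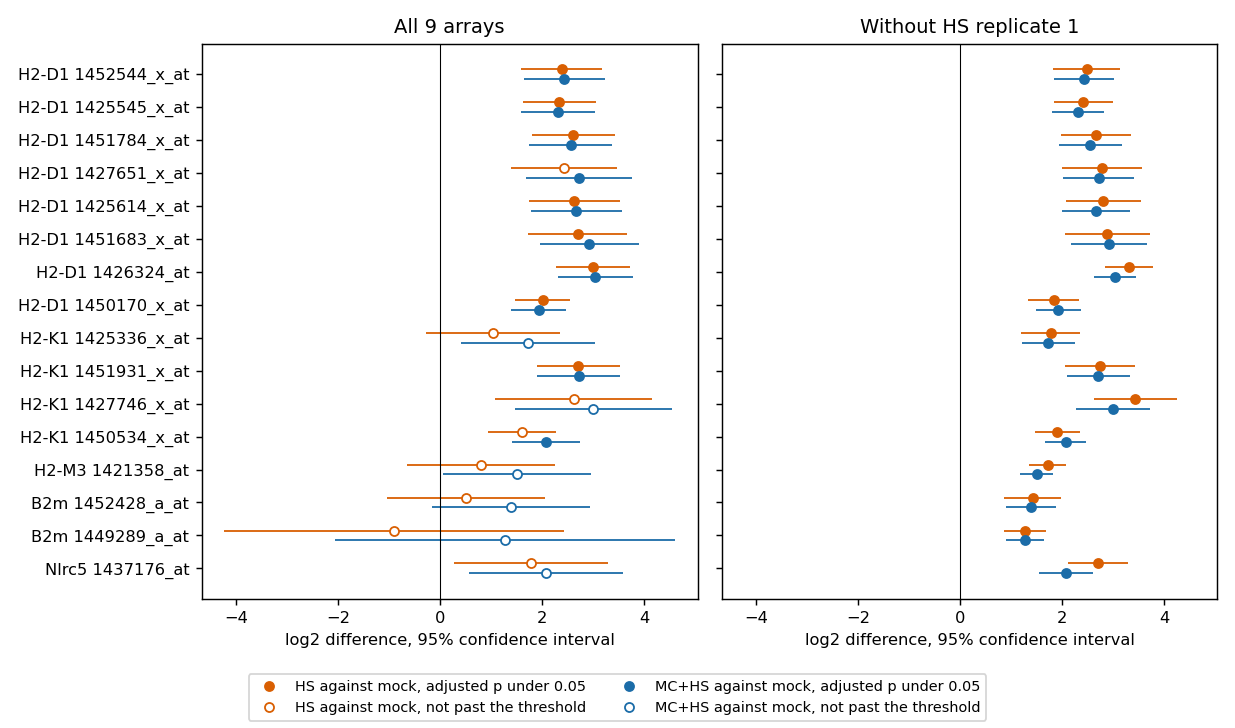
Log2 difference from mock (horizontal axis) of the 16 tested probe sets, with 95% confidence intervals from limma, for HS and MC+HS. Filled points had an adjusted p under 0.05: 8 for HS and 10 for MC+HS with all 9 arrays (left), and 16 for each without HS replicate 1 (right).

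These counts rested on single arrays. In HS the number of the 16 that rose was 2 when HS replicate 2, HS replicate 3, mock replicate 1 or mock replicate 3 was left out, where 0.239% to 0.304% of all probe sets rose. It was 5 without MC+HS replicate 2 or MC+HS replicate 3, where the share was 0.435% and 0.403%. In MC+HS it was 0 without MC+HS replicate 2, MC+HS replicate 3, mock replicate 1 or mock replicate 3, where 0.0357% to 0.118% of all probe sets rose, and 1 without MC+HS replicate 1 (0.103%). All of these fits still contained HS replicate 1.

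HS replicate 1 split the class I genes. Relative to mean mock, its 8 H2-D1 probe sets were 1.72 to 2.50 higher on the log2 scale, and 1451931_x_at for H2-K1 was 2.63 higher. The remaining H2-K1 probe sets stood at 0.99, 0.96 and -0.43, Nlrc5 at -0.05, H2-M3 at -1.04, and B2m at -1.35 and -5.26. On HS replicates 2 and 3 the same 16 probe sets averaged 1.27 to 3.44 above mock. Over all probe sets tested, HS replicate 1 was below all mock arrays for 70.8% and above all of them for 16.5%, against 4 and 10 of the 16 class I probe sets. What set this array apart was not tested.

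**Figure D3:**
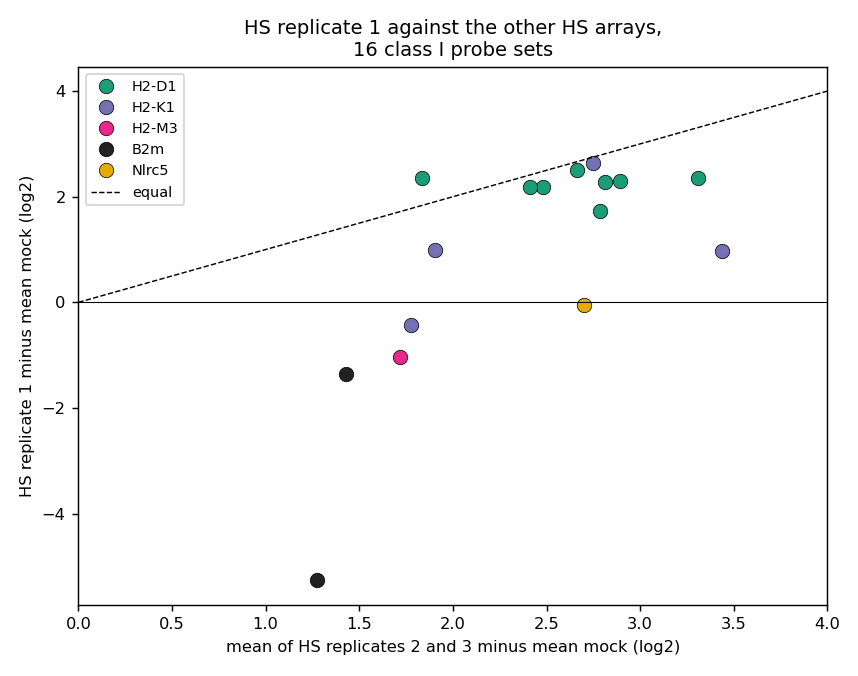
Log2 difference from mean mock of HS replicate 1 (vertical axis) against the mean of HS replicates 2 and 3 (horizontal axis), 1 point for each of the 16 probe sets, with a dashed line of equal values. H2-D1 points lie nearer the line, while B2m, at -1.35 and -5.26, H2-M3 and Nlrc5 lie far below it.

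Mock replicate 2 also differed from its group in these genes. It was the highest mock array for 16 of 16 probe sets, against 33.2% of all probe sets tested. It exceeded the mean of the other mock arrays by 0.51 (H2-M3) to 1.53 (1427746_x_at for H2-K1), with a median of 1.06, and exceeded it by over 0.5 for 16 of 16, against 3.54% of all probe sets. The summed signal of infiltrating monocyte markers was 2290.5 on mock replicate 2 and 965 and 944 on the other mock arrays. That of NK and cytotoxic cell markers was 462, against 446 and 450.4. The monocyte markers did not move as a whole. On mock replicate 2, Plac8 read 1063, against 211 and 193, while Chil3 read 15.5, against 26.2 and 24.7. The part of these cells in the result was not tested. Leaving mock replicate 2 out raised the median log2 difference of the 16 to 2.73 in HS and 2.75 in MC+HS, with 9 and 10 of the 16 rising (0.848% and 0.67% of all probe sets).

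MC+HS and HS were compared directly to ask whether class I expression depended on the purification. None of the 16 probe sets differed by limma (0 at an adjusted p under 0.05 and 0 at an unadjusted 0.05), where the call rate over all probe sets was 0% (0 of 28257, with 847 at an unadjusted 0.05). With all arrays the log2 differences ran from -0.08 to 2.18, with 95% confidence intervals that reached from 0.54 to 3.33 to either side. The largest, 2.18 for 1449289_a_at of B2m, rested on HS replicate 1. The signs of these small differences also turned under other scalings, so no order of the vectors is drawn from them.
Without that array 0 of 16 differed by limma (1 at an unadjusted 0.05; call rate over all probe sets 0.00357%), the differences ran from -0.62 to 0.17, and the intervals reached from 0.37 to 0.83 to either side. The brightest H2-D1 probe set then differed by -0.05 (95% confidence interval -0.70 to 0.61), and the other 7 for that gene by -0.27 to 0.09. The H2-K1 probe sets differed by -0.05, -0.04, -0.44 and 0.17, H2-M3 by -0.22 (-0.58 to 0.15), and B2m by -0.04 and 0.00041. The lowest difference was that of Nlrc5 at -0.62 (-1.20 to -0.04), which did not pass (limma adjusted p = 0.628, and between 0.0756 and 0.9999 over its 18 alternatives). HS and MC+HS share the mock arrays, so likeness of their differences from mock is not a separate result.

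Other genes of class I presentation were counted by list, again with the brightest probe set for each gene. As given above, 0.893% of genes rose in HS and 0.69% in MC+HS, or 3.82% and 3.25% in the fit without HS replicate 1. The lists were chosen with earlier results of these data known. Of 24 other heavy chain genes, only 8 had a probe set that carried their symbol alone, and H2-L was not among them. Of these 8, 4 passed the filter and 1 rose, H2-Q5 (3.37 ± 0.43 in HS and 3.04 ± 0.43 in MC+HS, limma adjusted p = 0.00945 and 0.0203). H2-Q5 was dim in mock, at 9.79, 88.4 and 15.5. It passed the filter through the vector arrays, where it was brighter, so its rise is not independent of the filter. H2-T24 differed by 1.54 ± 0.44 and 1.64 ± 0.44 and did not pass (limma adjusted p = 0.309 and 0.284). Without HS replicate 1, 2 of 3 rose in both comparisons (shares over all genes 3.82% and 3.25%), H2-T24 by 1.99 ± 0.33 in HS (limma adjusted p = 0.00632). The list fell from 4 to 3 tested there because H2-T3 no longer passed the filter. H2-T3 read 457 on HS replicate 1 and 66.2 to 118 on the other arrays. H2-Q5 is a near relative of the classical heavy chains, and its probe set may hold their signal.

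In peptide transport and loading, 3 of 7 genes rose in HS and 2 in MC+HS. The peptide transporter subunits Tap1 and Tap2 rose by 2.55 ± 0.35 and 2.88 ± 0.31 in HS and by 2.99 ± 0.35 and 2.70 ± 0.31 in MC+HS. Tapbpl, a peptide editor of class I, rose by 0.90 ± 0.15 in HS (limma adjusted p = 0.0356) and differed by 0.81 ± 0.15 in MC+HS (limma adjusted p = 0.0612). Tapbp (tapasin), which bridges class I to the transporter, differed by 1.20 ± 0.48 and 1.38 ± 0.48 and did not pass. The median of the list was 0.90 in HS and 0.81 in MC+HS, against -0.23 and 0.0065 over all genes.

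In peptide generation, 1 of 5 genes rose in HS and 0 in MC+HS by limma (4 at an unadjusted 0.05). The riser was Erap1, the aminopeptidase that trims peptides (1.12 ± 0.15; limma adjusted p = 0.0117), which differed by 0.65 ± 0.15 in MC+HS (limma adjusted p = 0.162). The immunoproteasome subunits Psmb8 and Psmb9 differed by 2.38 ± 0.64 and 2.23 ± 0.45 in HS and by 2.85 ± 0.64 and 2.26 ± 0.45 in MC+HS, and did not pass. The immunoproteasome subunit Psmb10 went the other way in HS, by -0.91 ± 1.32, and differed by 0.75 ± 1.32 in MC+HS. It did not pass, and it read 40.8 on HS replicate 1 against 1230 to 2016 in mock. Without HS replicate 1, 5 of 5 rose in both comparisons, and 5 of 7 transport and loading genes rose in HS and 4 in MC+HS, where 3.82% and 3.25% of all genes rose.

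Among genes of class I transcription, 1 of 12 rose in both comparisons: Irf9, the DNA-binding part of the complex through which type I interferon acts (1.90 ± 0.32 in HS and 1.82 ± 0.32 in MC+HS; limma adjusted p = 0.0352 and 0.0494). The subunits of the RFX complex, with which Nlrc5 works at class I promoters, differed by 0.06 ± 0.25 (Rfx5), -0.01 ± 0.28 (Rfxap) and 0.11 ± 0.17 (Rfxank) in HS and did not pass. In the fit without HS replicate 1, 3 of 12 rose in both comparisons (Irf2, Stat2 and Irf9), against 3.82% and 3.25% of all genes. Class I-like molecules, such as the lipid-presenting Cd1d1 and the neonatal Fc receptor Fcgrt, gave 0 of 5 past the threshold in either comparison by limma (0 in HS and 1 in MC+HS at an unadjusted 0.05). With HS replicate 1 left out, 1 of 5 rose, Procr. The list on MHC class II, which presents peptides to CD4 T cells, gave 0 of 4 by limma with and without HS replicate 1. At an unadjusted 0.05 there was 1 in HS, H2-Aa, which was lower than mock (-0.79 ± 0.29), and 0 in MC+HS. The medians of the list were -0.12 in HS and 0.04 in MC+HS. The class II transactivator Ciita did not pass the filter on dim signals.

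**Figure D4:**
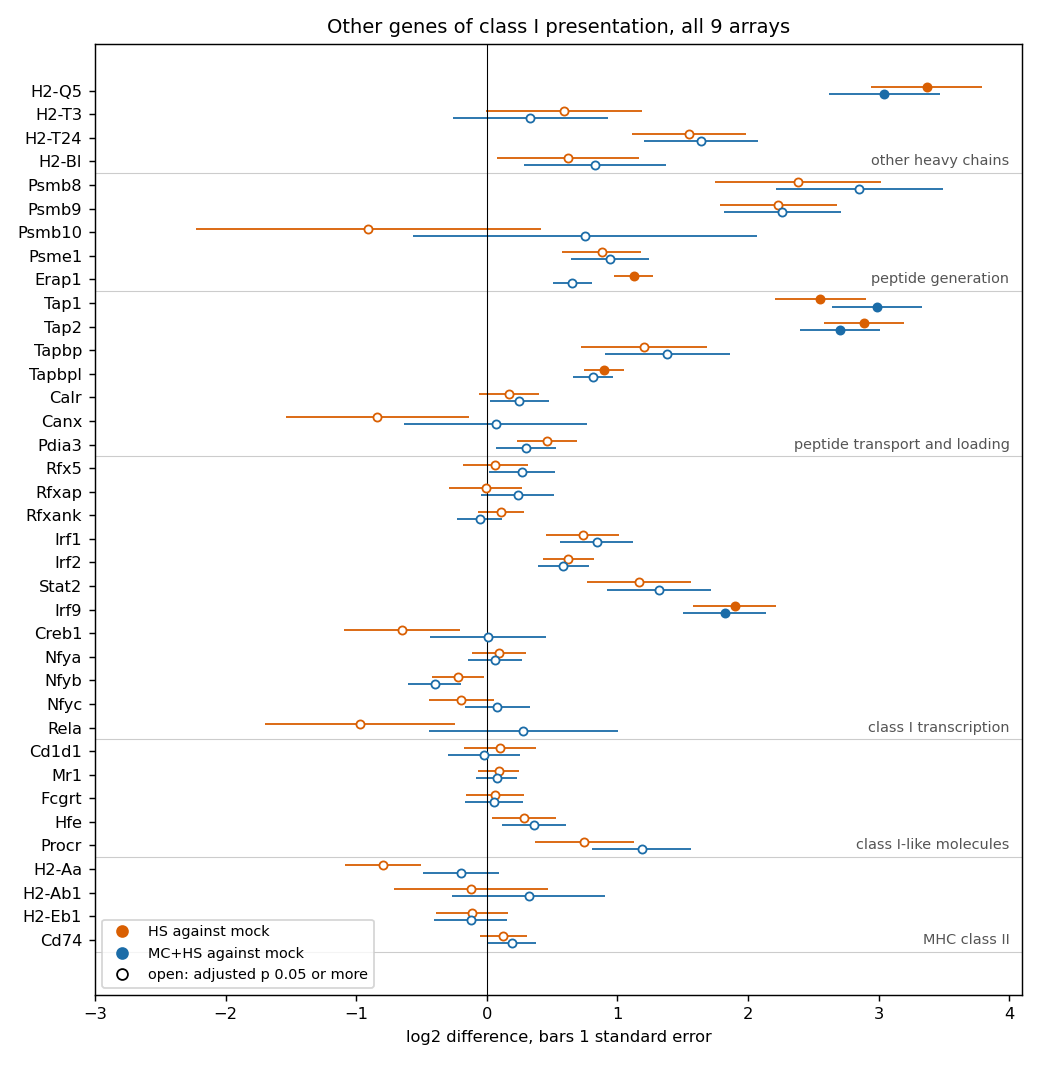
Log2 difference from mock (horizontal axis, bars 1 standard error) for other genes of class I presentation and for MHC class II, by list, with all 9 arrays. Filled points had a limma adjusted p under 0.05, among them H2-Q5, Tap1, Tap2 and Irf9 in both comparisons.

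Markers of other cell types also moved. The shares of all genes that rose were 0.893% in HS and 0.69% in MC+HS with all arrays, 3.82% and 3.25% without HS replicate 1, and 1.03% and 0.859% without mock replicate 2. NK and cytotoxic cell markers rose in 2 of 6 cases in both comparisons (Gzma and Gzmb), and their summed signal was 446 to 462 in mock, 1284 to 2959 in HS and 1143 to 2237 in MC+HS. With all arrays, Nkg7, Klrk1 and Eomes had positive differences that did not pass. Prf1 went the other way, by -0.74 ± 0.37 in HS and -0.21 ± 0.37 in MC+HS. Its vector arrays were below its mock arrays, and it did not pass. The NK markers Ncr1 and Klre1 did not pass the filter on dim signals. Infiltrating monocyte markers rose in 1 of 6 cases (Chil3), or 4 without HS replicate 1 and 3 without mock replicate 2, and summed to 944 to 2290.5 in mock, 2042 to 7582 in HS and 5357 to 5866 in MC+HS. Chil3 read 15.5 to 26.2 in mock and also passed the filter through the vector arrays. With all arrays, Vcan had a negative difference in HS (-0.19) and did not pass. Neutrophil markers rose in 2 of 3 cases in HS, S100a8 by 2.19 ± 0.25 and S100a9 by 2.18 ± 0.25 (limma adjusted p = 0.00695 and 0.00696). In MC+HS, S100a9 alone of the 3 rose, by 1.47 ± 0.25 (limma adjusted p = 0.0454), while the count was 2 of 3 without HS replicate 1 and 0 without mock replicate 2. Their summed signal was 281 to 373 in mock, 509 to 905 in HS and 429.7 to 539 in MC+HS, and the granule genes Mpo, Elane and Camp did not pass the filter. Endothelial markers rose in 0 of 8 cases by limma with all arrays (1 in HS and 4 in MC+HS at an unadjusted 0.05), and in 3 of 8 in both comparisons without HS replicate 1 (Cldn5, Cdh5 and Esam). Their sum was 5604 to 6396 in mock, 4224.5 on HS replicate 1, 8665 and 9955 on the other HS arrays, and 8003 to 9009 in MC+HS. T cell markers rose in 0 of 4 cases by limma (0 at an unadjusted 0.05), and 6 of 10 on the array, among them Cd3d, Cd3g and Cd8b1, did not pass the filter. The 4 tested were Cd3e, Cd8a, Cd4 and Thy1. Thy1 read 6774 to 13077 on the arrays other than HS replicate 1, mock included, and which cells gave that signal was not tested. Microglial markers fell in 1 of 7 cases in HS (Gpr34) and 2 of 7 in MC+HS (P2ry12 and Gpr34), where 0.0375% and 0.0225% of all genes fell. Tmem119 alone of the 7 had positive differences (0.29 in HS and 0.22 in MC+HS), and Csf1r differed by -0.16 and -0.08. Neither passed. The microglial sums overlapped, at 12689 to 15023 in mock, 9471 to 12875 in HS and 11002 to 13468 in MC+HS. The counts of microglial markers that fell became 4 and 4 without HS replicate 1, where 0.393% and 0.431% of all genes fell. They were 1 and 0 without mock replicate 2, where 0.0151% and 0% fell. The part of these cells in the class I result was not tested.

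The genes with the most similar pattern were found by the root mean square difference of log2 values relative to mock over the 9 arrays, among 13326 genes outside the list. The brightest H2-D1 probe set was nearest to Ifi35 (0.13), Oas1a (0.17) and Irf7 (0.21), and H2-K1 to Lgals3bp (0.17), Eif2ak2 (0.21) and Cebpd (0.25). B2m was nearest to Wfdc17 (0.15), S1pr3 (0.17) and Gfap (0.22), and H2-M3 to S1pr3 (0.21), Ifitm1 (0.26) and Gfap (0.26). Nlrc5 was nearest to Herc6 (0.22), Slfn8 (0.24) and Timp1 (0.26). Within the list H2-M3 and B2m were closest (0.25), and H2-D1 and B2m were farthest apart (1.41). HS replicate 1 enters all of these values.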

How the data were processed

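Labelled RNA of each mouse was hybridised to 1 array. Per the submitters' processing notes the authors used GCOS 1.4.0.036, and the deposited values are linear intensity units per probe set. Summarisation and scaling are not given in the sources used here. Values were converted to log2(signal + 16), which understates differences of dim genes, and array medians were aligned. Control probe sets (64) were dropped, and a probe set was kept if it exceeded the 40th percentile of an array on 3 or more arrays (28257 kept). A probe set dim in mock could pass through the vector arrays alone, which favours rises among dim probe sets. Groups were compared with limma 3.58.1 in R 4.3.3 in a single trended empirical Bayes fit of the 9 arrays, without covariates. P-values were two-sided, with Benjamini-Hochberg adjustment within each contrast and a threshold of 0.05. Errors written ± are standard errors. The brightest probe set past the filter stands for a gene where 1 value is needed. All probe sets of the listed genes are named, with up to 4 genes of each other list by smallest p. Psmb10, the RFX subunits, Cd1d1, Fcgrt, Ciita and cell markers are named for their role, with values seen, and H2-T3 for its loss at the filter. Genes, lists and motifs were chosen with earlier results of these data known, and the shorter interferon core after the promoters had been read. Scripts were tested on simulated data. Alternatives were other pseudocounts, filters and scalings, array weights, fewer arrays and a replicate block.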

Additional observations from a re-analysis of the deposited data

Results flagged for a closer look

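Probe sets that the annotation gives to several genes were outside the comparisons above, and 3 that carry a listed symbol passed the filter. Probe set 1449556_at, listed for H2-T23 and the pseudogene H2-T-ps, was above mock by 2.91 on the log2 scale in HS and by 2.88 in MC+HS (limma adjusted p = 0.0126 and 0.0194), with all vector arrays above all mock arrays. Probe set 1451593_at, listed for H2-Q5 and H2-K1, was above mock by 2.73 in HS and 2.98 in MC+HS (limma adjusted p = 0.0356 and 0.0297), again without overlap. The remaining one, 1424948_x_at, listed for H2-K1 and H2-D1, differed by 2.25 in HS and 3.16 in MC+HS and did not pass (limma adjusted p = 0.635 and 0.365). Which of the listed genes gave these signals was not tested.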

How the results depend on the processing

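Of the 16 class I probe sets, array quality weights gave 16 rising in HS and 16 in MC+HS, where 14.2% and 3.82% of all probe sets rose. The estimation of these weights warned of stopping early. A fit of only the 6 arrays compared gave 0 and 16 (0.0584% and 1.98% of all probe sets), and omitting the centring gave 2 in MC+HS (0.237%). Over all probe sets, weights called 7776 in HS, 2146 in MC+HS and 6536 between the vectors, fits of 6 arrays called 16 and 703, a filter at the 60th percentile called 136 in HS, and no centring called 69 in MC+HS. Leaving out single replicates gave 67 to 930 calls in HS, 10 to 934 in MC+HS and 0 to 1 between the vectors, and 2 to 16, 0 to 16 and 0 to 0 of the 16. Correlations of same-numbered deviations ran from -0.168 to 0.287, and those of differently numbered arrays from -0.318 to 0.159. The highest, 0.287, was between MC+HS replicate 3 and mock replicate 3. With 3 arrays per group these values cannot settle whether replicate numbers pair the samples. With the number as a replicate block, 5 of 16 rose in HS and 5 in MC+HS, where 0.513% and 0.333% of all probe sets rose. That block gave 95 calls over all probe sets in MC+HS. Between the vectors, weights called 1 of 16, against 6536 of 28257 over all probe sets. It was 1450534_x_at for H2-K1 (limma adjusted p = 0.0382, and 0.0382 to 0.9999 over the alternatives). B2m 1449289_a_at in HS turned to 1.09 with weights and ran from -2.02 to 1.27 with replicates left out. Differences of MC+HS from HS changed sign as follows. Without centring they were -0.22 (1452544_x_at), -0.24 (1425614_x_at), -0.042 (1451683_x_at), -0.23 (1426324_at) and -0.27 (1451931_x_at). After quantile normalization they were -0.13 (1452544_x_at), -0.027 (1427651_x_at), -0.20 (1425614_x_at), -0.090 (1451683_x_at), -0.32 (1426324_at) and -0.21 (1451931_x_at). A pseudocount of 64 gave -0.016 (1425614_x_at), -0.00010 (1426324_at) and -0.046 (1451931_x_at). Weights gave 0.035 (1425545_x_at), -0.022 (1425614_x_at), 0.26 (1450170_x_at), -0.0081 (1425336_x_at), -0.28 (1427746_x_at), -0.068 (H2-M3) and -0.46 (Nlrc5). With replicates left out the ranges were -0.048 to 0.18 (1452544_x_at), -0.10 to 0.098 (1425545_x_at), -0.11 to 0.039 (1451784_x_at), -0.072 to 0.53 (1427651_x_at), -0.15 to 0.19 (1425614_x_at), -0.27 to 0.33 (1426324_at), -0.20 to 0.095 (1450170_x_at), -0.049 to 1.09 (1425336_x_at), -0.037 to 0.081 (1451931_x_at), -0.44 to 0.86 (1427746_x_at), -0.22 to 1.22 (H2-M3), -0.036 to 1.39 (B2m 1452428_a_at) and -0.62 to 0.84 (Nlrc5). The cause of these changes was not tested. Omitting the centring moved the median of all probe sets in HS from -0.21 to 0.09 and that of the 16 from 2.36 to 2.66. In every other case against mock, the direction of the 16 was kept. The list counts without HS replicate 1 or mock replicate 2 were chosen after seeing the data. Precision is limited by 3 arrays per group.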
